A study of Mus musculus with 4 samples.

Results

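Glutathione S-transferases (GSTs) of mouse liver were followed after repeated dosing with aristolochic acid type I (AAI), the plant nephrotoxin that is activated by nitroreduction in the liver and kidney. The members were the genes Gsta1, Gsta2, Gsta3, Gsta4, Gstm1, Gstm2, Gstm3, Gstm4, Gstp1 and Gstt1, and they were found as every non-control probe whose gene name on the array is one of these 10. There were 12 such probes of 56605 on the array, and they named 9 of the 10 genes, out of 37074 gene names in all. No probe carried the name Gsta1, so Gsta1 was not measured under its own name. The study set AAI against its vehicle in each sex, with a lower dose in males. Each of the 4 groups was a single pool of equal amounts of liver RNA from 5 wild-type C57BL/6 mice, labelled as 6 weeks old, and each pool was read on 1 single-colour array. The F AAI pool came from females injected intraperitoneally with 5 mg/kg/day AAI for 5 days a week over 3 weeks, and the M AAI pool from males injected as often with 2 mg/kg/day. The F corn oil and M corn oil pools came from females and males given the corn oil vehicle. Between the AAI pools, sex and dose cannot be told apart, while the corn oil pools differ by label in sex alone. No group had a second array, so no difference below has a replicate check, and no p-value or standard error was computed.

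GSTs join glutathione to electrophiles, which makes reactive chemicals and lipid breakdown products soluble for export. The cytosolic enzymes fall into classes named alpha (Gsta), mu (Gstm), pi (Gstp) and theta (Gstt), and hepatocytes are among the richest sources of the alpha and mu classes. Many GST genes carry antioxidant response elements bound by Nrf2, the oxidative stress regulator held in check by Keap1, and several also answer to the nuclear receptors PXR (Nr1i2) and CAR (Nr1i3). In mice the pi class is known for a higher level in male than in female liver.

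The sequences of the probes mattered most for the genes with close relatives. The probe for Gstp1 (mm9 chr19:4037306-4037365, minus strand) is shown whole, since the largest differences between pools were read with it, and the array's own accession list pairs it with the transcripts of both Gstp1 and its neighbour Gstp2. Its reading therefore cannot be assigned to Gstp1 alone. The probes for Gstm4 (mm9 chr3:107846495-107846847, minus strand) and Gsta4 (mm9 chr9:78046172-78047344, plus strand) are shown because each has 60 bases but spans a longer stretch of genome, 353 and 1173 bases, and so crosses an exon junction. None of these bases is marked in capitals.
Gstp1: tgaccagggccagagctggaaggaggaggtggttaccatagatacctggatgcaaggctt
Gstm4: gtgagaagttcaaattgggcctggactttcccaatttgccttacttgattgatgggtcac
Gsta4: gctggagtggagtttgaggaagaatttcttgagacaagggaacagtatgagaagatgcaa

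The probe for Gsta2 is nearly the same as the probe for Gm10639, an alpha class relative that lies close to Gsta2 on chromosome 9. The opening 30 bases of each are given from the probe's 5′ end, with the differing base in capitals. They differ by T23G, with the Gsta2 base named first and positions counted from 1 at the 5′ end. These bases lie at mm9 chr9:78178886-78178915 on the minus strand for Gsta2 and at mm9 chr9:78153243-78153272 on the plus strand for Gm10639.
Gsta2: gccacagatactggcctctaatTgtttgca
Gm10639: gccacagatactggcctctaatGgtttgca

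Over the full 60 bases these 2 probes shared an unbroken run of 30. In the 844 pairs of probes for different genes that can be formed from the 42 GST probes considered, this was the single pair to share a run of at least 20 bases, and the next longest shared run was 11. Readings of the Gsta2 and Gm10639 probes are thus not assigned to a single gene, and whether they also read transcripts of Gsta1 or Gsta13, which had no probe of their own name, was not tested. The remaining members lay at mm9 chr1:21255189-21255248, chr1:21255043-21255102 and chr1:21246334-21246393 (Gsta3, plus strand), chr3:107784622-107784681 (Gstm2, minus), chr3:107766730-107766789 (Gstm3, minus) and chr10:75246560-75246619 (Gstt1, minus). Gstm1 had a probe at chr3:107815595-107815654 (minus), inside the run of mu class genes. Its brighter probe is also listed under the Gstm1 transcript, but the array file places it at chr5:117082490-117082549 (minus).

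All 12 probes were well above background on all 4 arrays, and none was saturated or marked as an outlier. Values are log2 signals after quantile normalization, and each gene is given by its brightest probe. A probe's level can be set against the same probe on another array but not against another probe. The scanner's own error on a ratio of 2 arrays was 0.20 (log2) for the brightest probe of every member. This value hardly varied with the signal, so it does not tell how precisely each probe was read. As a second yardstick, the median standard deviation between probes of the same gene was 0.25 for the female AAI ratio over 9128 genes, 0.24 for the male ratio over 8618 genes and 0.23 for the sex ratio in corn oil over 8893 genes. Both cover technical error, not the spread between animals.

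The pools were checked for the cells they held. All 12 hepatocyte markers were well above background on every array. Their summed signal, on a log2 scale, was 21.13 to 21.20, but such bright probes are held close together by quantile normalization, so this sum says little about the share of hepatocytes. Single hepatocyte markers had log2 ratios of AAI over corn oil between -0.43 and 0.75 in females and between -0.94 and 0.49 in males. Skeletal muscle markers had a summed log2 signal of 10.56 in F corn oil, 15.57 in F AAI, 12.62 in M corn oil and 18.57 in M AAI, with all 12 at least 2-fold higher with AAI in each sex. In M AAI the fat markers (16.55, against 12.44 to 13.24 in the other pools) and the adrenal markers (15.73, against 13.54 to 13.98) were also higher. At least 2-fold higher with AAI in males were 8 of 10 and 6 of 12, while the adrenal marker Mc2r was at least 2-fold lower. In females 3 of 9 fat markers tested (Adipoq, Retn and Cfd) were at least 2-fold higher with AAI and none was lower. Of 11 adrenal markers tested in females, none was at least 2-fold higher and 1 (Phox2a) was lower. Macrophage and Kupffer cell markers were lower with AAI, 7 of the 9 measured by at least 2-fold in females and 1 of 9 in males. Kidney and bile duct marker sums varied between 11.57 and 11.98, but single markers differed more. The kidney markers Slc12a3 and Lrp2 were at least 2-fold lower with AAI in males. The bile duct marker Krt19 was at least 2-fold lower with AAI in females and higher in males. In bulk liver, fewer cells of a type and less RNA per cell cannot be told apart. The part of these other tissues in the GST values was not tested.

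**Figure D1:**
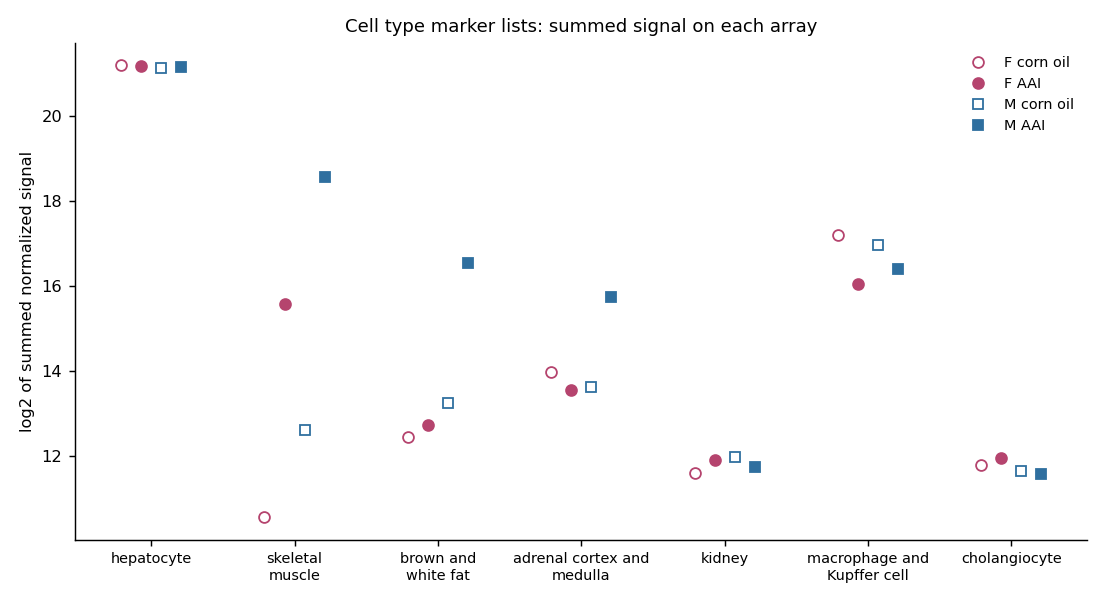
Summed normalized signal (log2, vertical axis) of 7 cell type marker lists on each of the 4 arrays, 1 symbol per pool (open, corn oil; filled, AAI; circles, females; squares, males). The muscle sum is 10.56 in F corn oil, 12.62 in M corn oil and highest in M AAI at 18.57.

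In females, 4 of the 9 measured members were at least 2-fold higher with AAI than with corn oil (Gsta2, Gstp1, Gstm4 and Gsta4) and none was at least 2-fold lower. Over all 31682 genes tested, 1.37% were at least 2-fold higher and 3.09% at least 2-fold lower (434 and 978 genes, or 623 and 745 when the arrays were scaled to their 75th percentile). The members' median log2 ratio was 0.60, and the median over all genes above background on both arrays was 0.04. In males, 1 member was at least 2-fold higher (Gstm4) and 1 at least 2-fold lower (Gstp1), where 3.51% of 30539 genes were higher and 4.59% lower. The members' median in males was 0.54 beside 0.02 for all genes. In each sex 8 of 9 members had a ratio above 0, Gstt1 being below 0 in females and Gstp1 in males. Of all genes above background on both arrays, 53.5% were above 0 in females and 51.8% in males. The female and male comparisons share no array.

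**Figure D2:**
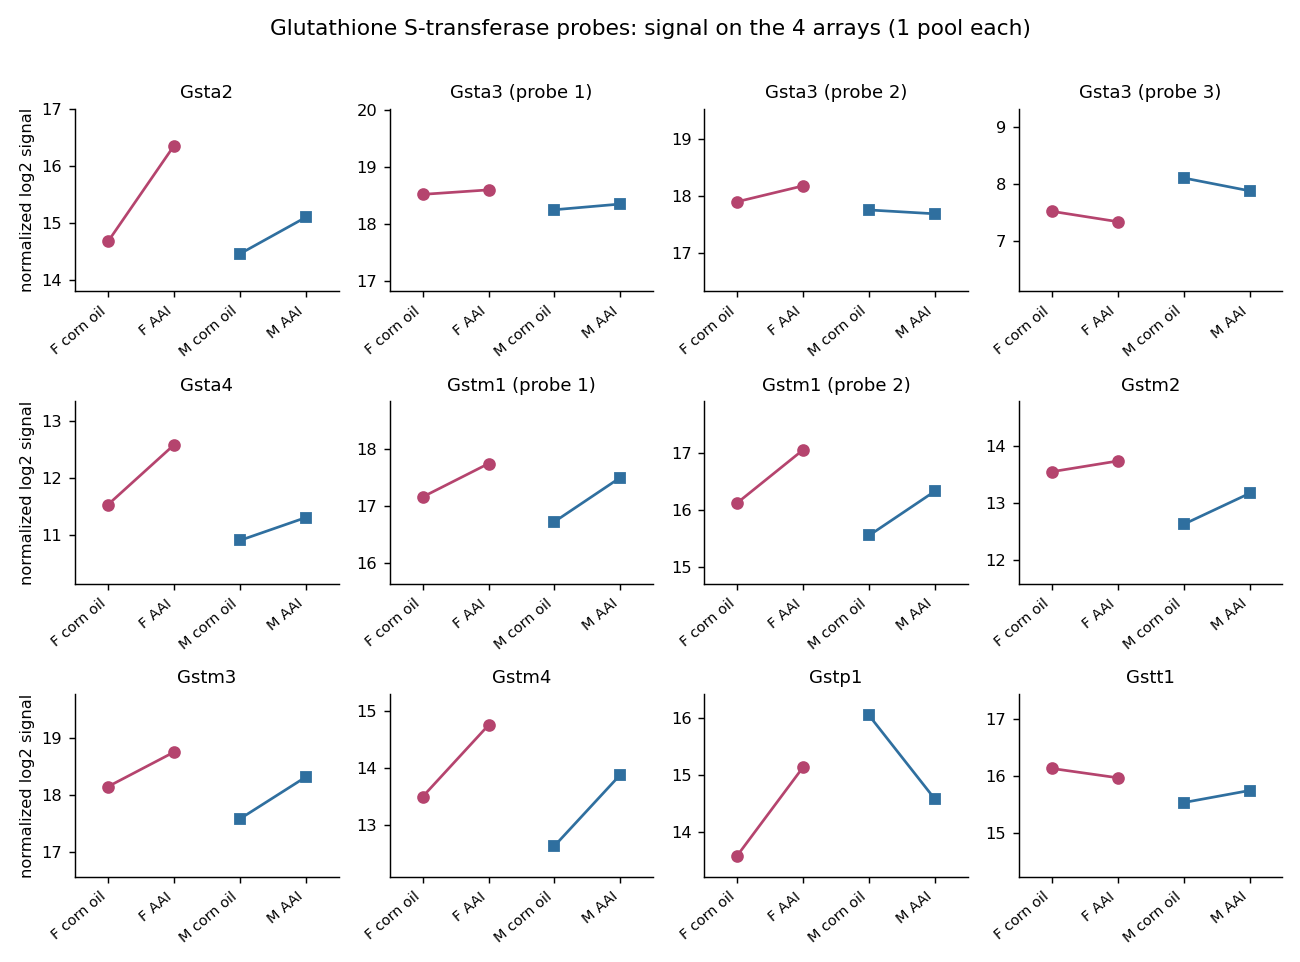
Normalized log2 signal (vertical axis, 3.2 units high in every panel) of each of the 12 GST probes on the 4 arrays, with a line from corn oil to AAI within each sex (circles, females; squares, males; 1 pool per point). The Gstp1 lines cross, from 13.58 to 15.13 in females and from 16.04 to 14.57 in males.

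Among the alpha class, which also reduces lipid hydroperoxides, Gsta2 had a log2 signal of 14.68 in F corn oil, 16.36 in F AAI, 14.46 in M corn oil and 15.10 in M AAI. The F AAI pool stood above the other 3. AAI over corn oil was 1.68 on the log2 scale in females (3.20-fold), which ranked 78 from the top of the 29714 genes above background on both arrays. In males it was 0.64 (1.56-fold). The near-identical Gm10639 probe read 14.13, 16.24, 14.46 and 14.88 in the same order of pools, which gives log2 ratios of 2.11 in females and 0.43 in males. Both probes thus had the larger AAI ratio in females, who received the higher dose.

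Gsta4, the alpha class enzyme with a preference for 4-hydroxynonenal, a product of lipid peroxidation, read 11.54 in F corn oil, 12.59 in F AAI, 10.91 in M corn oil and 11.31 in M AAI. The log2 ratio was 1.05 in females (2.07-fold) and 0.40 in males (1.32-fold). The female value lay just past the 2-fold line, between 1.01 and 1.05 under the 6 other ways of processing. Gsta4 had a single probe and no replaced spot, so averaging probes and leaving out replaced spots could hardly move it.

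Gsta3, the enzyme by which mice conjugate the epoxide of aflatoxin B1, showed little difference. Its brightest probe read 18.52 and 18.60 in F corn oil and F AAI and 18.25 and 18.35 in M corn oil and M AAI, with log2 ratios of 0.08 and 0.10. A further Gsta3 probe gave 0.28 in females and -0.07 in males. The last, which is listed under an Ensembl transcript of its own and was much dimmer on every array, gave -0.18 and -0.23. These ratios were at or near the error of the method, and averaging the 3 probes turned the male value below 0.

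Of the mu class members, Gstm4 alone was past 2-fold with AAI. It read 13.50 in F corn oil, 14.76 in F AAI, 12.64 in M corn oil and 13.89 in M AAI. No other member was at least 2-fold higher in both sexes, and its log2 ratios of 1.26 and 1.25 (2.39-fold and 2.38-fold) differed by 0.01 although the doses were 5 and 2 mg/kg/day. The female ratio ranked 157 from the top of 29714 genes and the male ratio 538 from the top of 28433.

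Gstm1, the most studied hepatic mu enzyme, read 17.17 in F corn oil, 17.75 in F AAI, 16.73 in M corn oil and 17.51 in M AAI with its brighter probe. The ratios were 0.58 in females and 0.78 in males. The probe placed on chromosome 3 read 16.13, 17.06, 15.56 and 16.34, with ratios of 0.93 and 0.78. The 2 probes gave the same male value, and in females the probe on chromosome 3 gave the larger ratio.

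Gstm3 read 18.15 in F corn oil, 18.76 in F AAI, 17.59 in M corn oil and 18.32 in M AAI, with log2 ratios of 0.60 (1.52-fold) and 0.73 (1.66-fold). Gstm2 read 13.54, 13.73, 12.62 and 13.16 in that order. Its female ratio of 0.19 was below the error of the method and its male ratio was 0.54 (1.46-fold). For Gstm1, Gstm2 and Gstm3 the brightest probe gave a male ratio 0.13 to 0.35 above the female ratio, beside a spread between probes of 0.24 to 0.25.

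Gstt1, the theta class enzyme that acts on small halogenated compounds, read 16.13 in F corn oil, 15.97 in F AAI, 15.54 in M corn oil and 15.75 in M AAI. The log2 ratios were -0.16 and 0.21, both within the spread between probes. The female value turned above 0 under 2 of the 6 other ways of processing.

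Gstp1, the pi class gene, differed in direction between the sexes. Its log2 signal was 13.58 in F corn oil, 15.13 in F AAI, 16.04 in M corn oil and 14.57 in M AAI. AAI over corn oil was 1.55 in females (2.93-fold higher) and -1.47 in males (2.77-fold lower), a gap of 3.02 on the log2 scale. M corn oil was the highest pool and F corn oil the lowest, with the AAI pools between them. The female ratio ranked 92 from the top of 29714 genes, and the male ratio 495 from the bottom of 28433. The probe named for Gstp2, whose sequence shared no run longer than 6 bases with the Gstp1 probe, read 16.86, 17.80, 18.07 and 17.56. Its ratios ran the same way, 0.94 in females (1.91-fold higher) and -0.51 in males (1.42-fold lower). Since the Gstp1 probe is also listed under the Gstp2 transcript, both probes may read that transcript and cannot be taken as independent. The scaling of the arrays did not turn either direction. Under the 6 other ways of processing the Gstp1 ratio was 1.48 to 1.55 in females and -1.54 to -1.21 in males. Averaging probes and leaving out replaced spots could hardly move this single probe.

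**Figure D3:**
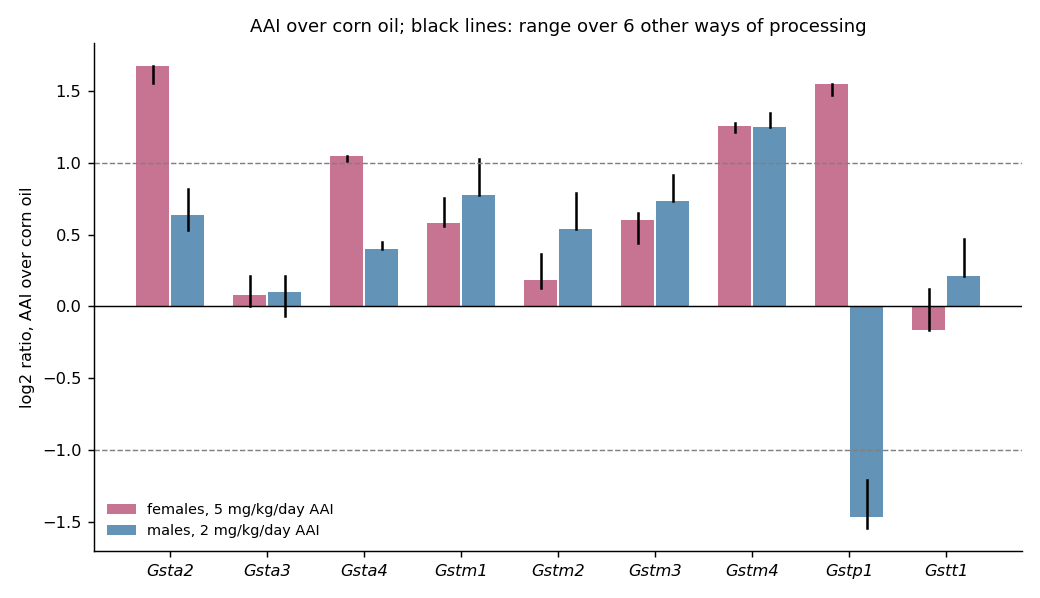
Log2 ratio of AAI over corn oil (vertical axis) for the 9 measured GST genes by their brightest probe, in females (5 mg/kg/day) and males (2 mg/kg/day), with dashed lines at 2-fold and a black line for the range over 6 other ways of processing. Gstm4 is past 2-fold in both sexes at 1.26 and 1.25, and Gstp1 is past it in opposite directions at 1.55 and -1.47.

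Between the corn oil pools, the female over male ratio was above 0 for 8 of the 9 members and below 0 for Gstp1. Of all genes above background in both pools, 52.5% had a ratio above 0. These pools differed in markers of other tissues too. In the female pool 10 of 12 muscle, 5 of 10 fat and 6 of 12 adrenal markers were at least 2-fold lower and 1 adrenal marker was higher. The kidney marker Lrp2 was also at least 2-fold lower there, and the bile duct marker Krt19 higher. Of the 12 hepatocyte markers 1 was at least 2-fold higher and 1 lower. The part of the other tissues in the ratios below was not tested. The female over male log2 ratio of Gstp1 was -2.46, so its signal was 5.50-fold higher in males, and the ratio ranked 77 from the bottom of 29111 genes. This was the only member past 2-fold, where 1.86% of all 30891 genes tested were at least 2-fold higher in females and 3.83% at least 2-fold lower. Gstm2 (0.92, 1.90-fold) and Gstm4 (0.86, 1.82-fold) came next to the 2-fold line on the female side, and both crossed it when the arrays were scaled to their 75th percentile. Gsta4 (0.63), Gstt1 (0.60), Gstm3 (0.57) and Gstm1 (0.43) followed. Gsta3 (0.27) and Gsta2 (0.22) were near the spread between probes. For Gsta3 the dimmest probe read -0.58 and the average of its 3 probes -0.06, which would leave 7 of 9 members above 0. The members' median was 0.57 and the median of all genes was 0.02. The female corn oil array is shared with the female AAI comparison and the male corn oil array with the male one.

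The same ratio between the AAI pools is given beside these values, although there the doses differ. Gstp1 stood at 0.56, against -2.46 in corn oil, and all 9 members were higher in the female pool, as were 54.7% of all genes above background in both. Gsta2 was 1.26 and Gsta4 1.27 (2.39-fold and 2.42-fold), the 2 members past 2-fold, where 1.17% of 31494 genes were higher in females and 3.25% lower. Gstm4 was at 0.87 with AAI and 0.86 without. By their brightest probes, Gstm2 (0.57), Gstm3 (0.44), Gsta3 (0.25, against 0.27), Gstm1 (0.24) and Gstt1 (0.22) were smaller than with corn oil. Further probes of Gstm1 and Gsta3 ran the other way. The Gstm1 probe placed on chromosome 3 read 0.57 with corn oil and 0.73 with AAI. The second Gsta3 probe read 0.14 and 0.49, and the dimmest -0.58 and -0.54.

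**Figure D4:**
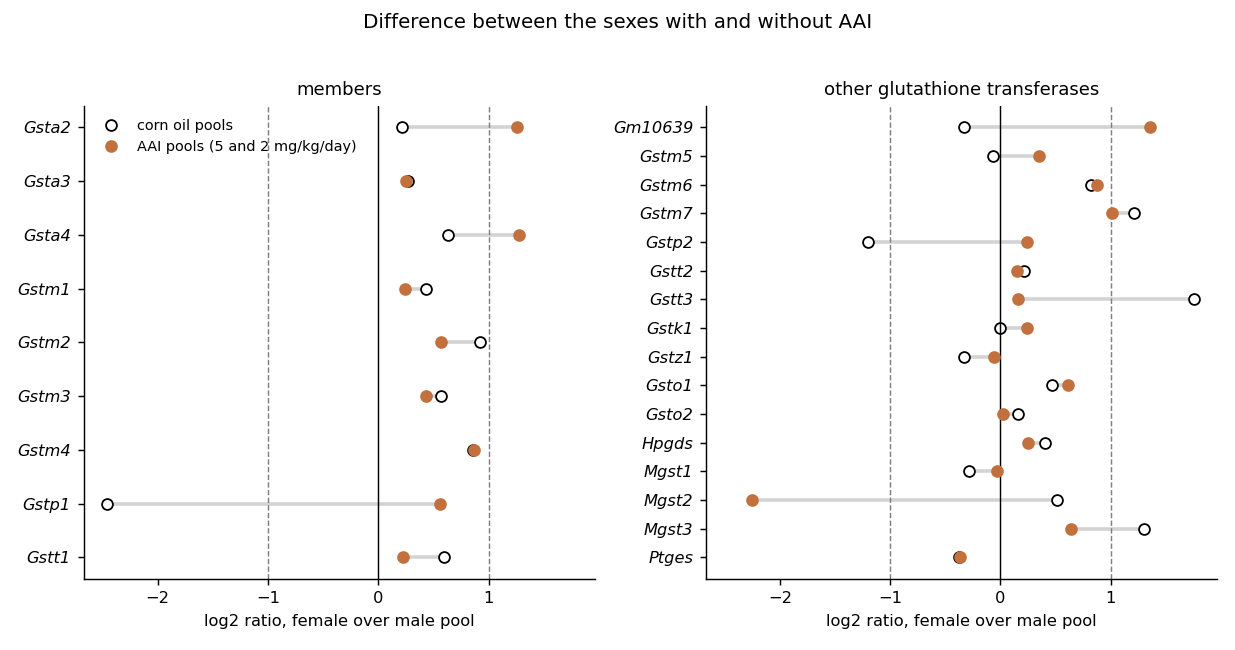
Log2 ratio of the female over the male pool (horizontal axis) with corn oil (open circles) and with AAI (filled circles; 5 mg/kg/day in females and 2 mg/kg/day in males), for the 9 measured members (left) and the 16 other glutathione transferases above background on all arrays compared (right). Gstp1 lies at -2.46 with corn oil and 0.56 with AAI, and Gstt3 at 1.76 and 0.16.

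Other glutathione transferases were taken as a list of 21 genes, of which 18 had a probe. In females 3 of the 16 that could be tested were at least 2-fold higher (Gm10639, Mgst3 and Gstm6) and none lower, with a median of 0.28. In males 4 of 17 were at least 2-fold higher (Mgst3, Mgst2, Gstt3 and Gstm6) and none lower, with a median of 0.23. Mgst3, a membrane-bound microsomal transferase, read 11.81 in F corn oil, 13.18 in F AAI and 12.55 in M AAI, with M corn oil the lowest pool, and its ratio was 1.38 in females and 2.05 in males (2.60-fold and 4.13-fold). Like Gstm4, it was past 2-fold in both sexes. Gstm6 gave 1.20 and 1.14 with its brightest probe, but 0.25 and 0.05 with another.

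Gstt3, a theta class relative of Gstt1, read 14.37 in F corn oil, 14.48 in F AAI, 12.62 in M corn oil and 14.32 in M AAI. The M corn oil pool stood below the other 3, so the ratio was 0.11 in females and 1.70 in males (3.25-fold). Mgst2, a microsomal enzyme that can form leukotriene C4, read 7.02, 6.15, 6.50 and 8.40 in the same order. Its ratio was -0.87 in females and 1.90 in males, the muscle, fat and adrenal markers being highest in the same M AAI pool.

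The ratios of the other transferases were smaller. Gstm7 gave 0.70 in females and 0.90 in males, Gstt2 0.60 and 0.66, and Gsto2, an omega class enzyme, 0.37 and 0.51. Further probes gave 0.78 and 0.73 for Gstm7 and 0.99 and 0.30 for Gstt2, so the sex with the larger ratio depended on the probe. Gstm5 gave 0.44 and 0.03, with 0.86 and 0.82 from another probe. The microsomal Mgst1 was at 0.17 and -0.08, the kappa class Gstk1 at 0.19 and -0.05, Gstz1 of tyrosine breakdown at -0.02 and -0.29, and Gsto1 at 0.00 and -0.15. Further probes gave 0.26 and -0.25 for Mgst1 and 0.49 and -0.11 for Gstz1. Of the prostaglandin synthases, Hpgds was at -0.16 and 0.00 and Ptges at -0.22 in both sexes, where 2 further Ptges probes lay above 0. Gstt4 was not well above background on any array, and Gstcd on 1 array alone. Gsta13, Gm3776 and Gstp3 had no probe of that name.

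Glutathione itself is built by Gclc, Gclm and Gss and kept reduced by Gsr. None of the 28 genes of synthesis and the redox cycle was past 2-fold in females, with a median of 0.17. In males 2 of 27 were higher (Gpx3 and Gpx8) and none lower, with a median of -0.16. Gpx3, the secreted plasma glutathione peroxidase, read 8.36 in F corn oil, 9.08 in F AAI, 8.21 in M corn oil and 10.59 in M AAI (0.71 and 2.39). Gpx8, a peroxidase of the endoplasmic reticulum, gave 0.10 and 1.57. Both stood highest in the M AAI pool, as did the markers of muscle, fat and adrenal.

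Conjugates leave the cell through transporters and are trimmed to mercapturates. Of the 19 genes on that list none was past 2-fold in females, with a median of 0.22, while in males 1 of 18 was higher and 2 were lower, with a median of -0.16. Nat8, which acetylates cysteine conjugates in the last step of mercapturate formation, read 8.84 in F corn oil, 9.40 in F AAI, 12.69 in M corn oil and 10.85 in M AAI. Its ratio was 0.56 in females and -1.84 in males. Abcg2, an efflux transporter of the canalicular membrane, gave 0.82 and -1.06. These 2 genes had the same order of pools at the extremes as Gstp1, with M corn oil highest and F corn oil lowest. Dpep1, a dipeptidase that cleaves cysteinylglycine conjugates, gave 0.32 and 1.12. The male values of Dpep1 and Abcg2 did not stay past 2-fold throughout, with 0.69 for Dpep1 after normexp background correction and -0.94 for Abcg2 with 75th percentile scaling.

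**Figure D5:**
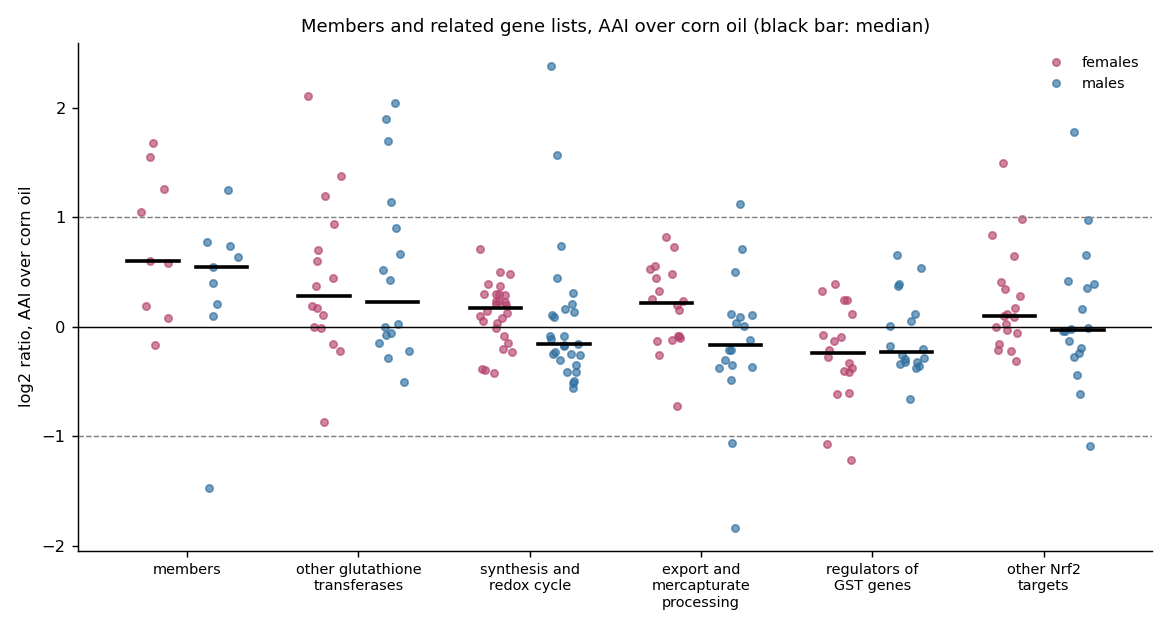
Log2 ratio of AAI over corn oil (vertical axis) for each gene above background on both arrays, by list and sex (1 point per gene, black bar for the median, dashed lines at 2-fold). The member medians are 0.60 in females and 0.54 in males, and the medians of the other lists lie between -0.24 and 0.28.

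Regulators of GST genes were measured at the level of RNA alone. Of 18, 2 were at least 2-fold lower in females (Nr1i2 and Cebpb) and none was past 2-fold in males, with medians of -0.24 and -0.23. Nr1i2, which encodes PXR, read 9.98 in F corn oil, 8.76 in F AAI, 9.80 in M corn oil and 9.52 in M AAI (-1.22 and -0.28). Cebpb, a liver transcription factor, gave -1.07 and -0.18. Nr1i3, which encodes CAR, gave 0.25 and 0.38 with its brightest probe, and -0.05 and 0.41 with another. Keap1 gave 0.11 and 0.39. Nfe2l2, which encodes Nrf2, gave -0.61 in females and -0.21 in males with its brightest probe, and -0.37 and 0.88 with another, so its direction in males depended on the probe. Ahr gave 0.25 and -0.66 with its brightest probe, and 0.12 and 0.10 with another, so its direction in males depended on the probe too.

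Of 19 other Nrf2 targets, 1 was at least 2-fold higher in each sex, Nqo1, the quinone reductase that also reduces the nitro group of AAI. It read 9.27 in F corn oil, 10.76 in F AAI, 8.31 in M corn oil and 10.09 in M AAI (2.82-fold and 3.44-fold). Aox1, aldehyde oxidase, was past 2-fold in males alone on the lower side (0.65 and -1.09), a result that ended when the arrays were scaled to their 75th percentile. The list's medians were 0.09 in females and -0.03 in males. The members' medians of 0.60 and 0.54 stood above those of all 5 related lists, a description of these 4 arrays with no test.

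The core of the antioxidant response element, the letters TGACNNNGC read on both strands, was looked for from 250 bases before to 50 bases after the start of each gene in RefSeq (GRCm38.p6). Promoters were at hand for 9 members, Gsta4 being the other. The letters occurred in 1 of the 9, Gsta3, or 11.1%, and in 3781 of the 27025 genes of the table. The Gsta3 match, in capitals, is shown since Gsta3 is the member with the least difference after AAI. The match lies on the gene's own strand, from 121 to 113 bases before the start. The 41 bases shown around it span GRCm38.p6 chr1:21240448-21240488, plus strand. No match in the other windows says only that these letters are not in those 300 bases.
Gsta3: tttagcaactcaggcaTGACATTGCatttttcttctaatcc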

How the data were processed

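Total RNA from livers was labelled with Cy3 and hybridised to Agilent mouse 8x60K arrays, 4 on 1 slide. The authors deposited, per array, the scanner's processed signal intensity (background subtracted and detrended by Feature Extraction), and a table of raw intensity and of quantile-normalized intensity. The raw column matched the processed signal within 1% for over 99% of probes. Files of 2 arrays are rounded to 3 significant digits and hold gene names turned into dates, so gene names were read from the other 2.

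Control spots and spots marked as outliers were left out, spots of a probe averaged, and log2 processed signals quantile normalized over the 56495 probes measured on all 4. A gene is its brightest probe. It was called at 2-fold where either array read that probe well above background. Where 1 side was not, the dim side was set to the higher of its own signal and the lowest signal well above background. The number of arrays limits the precision. Alternatives were scaling to the 75th percentile, normexp (offset 50, limma 3.58.1, R 4.3.3), signals without the multiplicative trend correction, the authors' table, replaced spots left out, and averaged probes, plus 1.5-fold and 3-fold lines and no filter on dim probes. The code for normalization, ratios and calls was checked on simulated arrays. Python 3.11.15 with pandas 2.3.3 did the rest.

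Members and lists were chosen with earlier results of these data known. Named genes were all members, the other transferases, Nfe2l2, Keap1, Nr1i2, Nr1i3, Ahr and Nqo1, and up to 3 genes per list, direction and sex past 2-fold with AAI. Protein sequences were not used here.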

Additional observations from a re-analysis of the deposited data

Results flagged for a closer look

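A gene named in the text is listed here because AAI over corn oil ran in opposite directions in females and males, each time by more than the median spread between probes of a gene. The difference was not tested, since each group held 1 array, and the doses were 5 and 2 mg/kg/day. In 5 genes whose values are given above, the ratio was above 0 in females and below 0 in males. Gss (0.39 in females and -0.52 in males) and Gsr (0.30 and -0.41), named above without values, ran the same way. Of the 5, Gstp1 had log2 ratios of 1.55 and -1.47, and Gstp2 of 0.94 and -0.51. The Gstp1 probe is listed under transcripts of both, so Gstp1 and Gstp2 cannot be counted as independent readings. Nat8 had 0.56 and -1.84, Abcg2 0.82 and -1.06, and Aox1 0.65 and -1.09. Each of these 5 was lower in the female than in the male corn oil pool, with log2 ratios of -2.46, -1.20, -3.84, -1.55 and -1.18. Those ratios share the corn oil arrays with the AAI comparisons. Mgst2 ran the other way, with -0.87 in females and 1.90 in males. Over all 106 members and list genes above background on all 4 arrays, 11 were above 0 in females and below 0 in males by this measure. All 11 were lower in the female than in the male corn oil pool, while 2 genes ran the other way. The share of all genes with this pattern was not computed. A low F corn oil or high M corn oil signal favours both the selection and the lower female value. The counts therefore cannot show a trait of these genes.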

How the results depend on the processing

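No paired analysis was possible because each group held 1 array, and for the same reason no array could be left out. Scaling to the 75th percentile moved the count of members at least 2-fold higher in males from 1 to 2 (Gstm1, at 1.03, joined), and in the corn oil pools from 0 to 2 (Gstm2 and Gstm4 joined). That last count was 1 with normexp and 1 without the multiplicative trend correction. A 3-fold line left 1 member higher in females (0.401% of all genes), 0 higher in males (1.54%) and 0 lower in males (1.67%). A 1.5-fold line gave 5 higher in females (7.81% of all genes), 4 higher in males (9.9%) and 4 higher in the female corn oil pool (7.95%). Among the lists, 75th percentile scaling left 1 conjugate-processing gene and 0 Nrf2 targets at least 2-fold lower in males, and normexp left 0 conjugate-processing genes higher in males. The list alternatives were chosen after seeing the data. The cause of these moves was not tested. No member past 2-fold changed direction in any of the 6 alternatives, and Gsta2, Gsta4, Gstm4 and Gstp1 kept their side of the 2-fold line in both AAI comparisons. Each of these genes had a single probe and no replaced spot, so averaging probes and leaving out replaced spots could hardly move them. The authors' table is quantile normalized from nearly the same signals, so it is not a separate check either. Over all genes, normexp called 139 higher and 343 lower in females in place of 434 and 978, 554 and 643 in males in place of 1071 and 1402, and 225 and 475 in the corn oil pools in place of 574 and 1184. The share of lower calls in females was 69.3%, and 54.5% with 75th percentile scaling.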
